A study of Mus musculus with 12 samples.

Results

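Genes of white and brown fat cells were followed through RNA-sequencing libraries of whole mouse kidney. They were chosen by name as rows of the deposited count table: Adipoq, Cfd, Plin1, Cidec, Lep, Retn, Fabp4, Ucp1, Cidea and Adrb3. All 10 members were found among its 46882 gene names, and 9 of them had enough counts to be tested, all except Ucp1. The libraries came from wild-type mice (WT, n = 6) and mice of genotype A1cf -/- (A1cf KO, n = 6), all of strain C57BL/6 and aged 6 to 8 weeks, with no treatment named in the labels for either group. How the A1cf allele was made is not given in the sources used here. Each library is 1 animal and is named here by its number, WT 573, 590, 601, 776, 777 and 778 and A1cf KO 574, 584, 588, 591, 602 and 780. A1cf encodes an RNA-binding partner of the cytidine deaminase APOBEC1.

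White fat cells store triglyceride in a single large lipid droplet and release hormones, while brown fat cells hold many small droplets and burn fatty acids for heat. The mouse kidney lies in a pad of fat that can hold both kinds. Adipoq (adiponectin), Lep (leptin), Retn (resistin) and Cfd (adipsin, a complement protease) encode products that fat cells secrete. Plin1 (perilipin) and Cidec coat the lipid droplet, and Fabp4 carries fatty acids inside fat cells and is also made by capillary endothelium. Ucp1 uncouples respiration in brown fat mitochondria, Cidea coats the droplets of brown fat, and Adrb3 is the noradrenaline receptor of both white and brown fat cells in mice.

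Total counts per library ran from 26671705 to 52899139. A1cf itself had 1446 to 2941 counts in WT and 104 to 293 counts in A1cf KO, so each library matched its genotype label (log2 fold change -3.72, SE 0.15, edgeR quasi-likelihood adjusted p = 6.0e-09). Of 16910 genes tested, 8 passed an adjusted p of 0.05 (0.0473%). Kidney markers were high in all 12 libraries, among them the phosphate transporter Slc34a1 (3064 to 6326 CPM) and uromodulin, Umod (1876 to 3656 CPM). CPM are counts scaled by the TMM-adjusted total of each library. A1cf KO 588 stood apart from the other libraries in fat genes, and values without it are given where it moves a result.

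The secreted products of fat cells spanned a wide range between kidneys. Adipoq had 196 counts in the lowest WT library (573), a median of 441 and 1980 in the highest (777), which is 3.80, 9.28 and 39.4 CPM. In A1cf KO the counts were 4 in the lowest library (588), 819.5 at the median and 2226 in the highest (602), or 0.083, 19.4 and 62.6 CPM. WT 777 lay above 5 of the 6 A1cf KO libraries, A1cf KO 588 lay below all WT libraries, and the genotypes overlapped. Cfd had the highest median of the members per kilobase of counted length, 51.8 CPM per kb over all libraries. Without scaling to length Fabp4 was higher, at a median of 99.25 CPM against 47.82 CPM for Cfd. Cfd counts ran from 318 (WT 573) over a median of 1060.5 to 8806 (WT 777) in WT, and from 2 (A1cf KO 588) over 2810.5 to 7307 (A1cf KO 602) in A1cf KO. Retn had 48 to 404 counts in WT (median 80.5) and 0 to 499 in A1cf KO (median 205.5). WT 777 and A1cf KO 602 were the highest libraries of their genotype for Adipoq, Cfd and Retn alike, and A1cf KO 588 was the lowest for all 3.

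Leptin did not follow this order. Lep counts ran from 6 (WT 778) over a median of 29 to 64 (WT 777) in WT, where WT 601 was highest after scaling (1.39 CPM), and from 0 over 22 to 68 (A1cf KO 584) in A1cf KO. It had 0 counts in A1cf KO 588 and also 0 in A1cf KO 780, where a floor of 3 counts stands for 0.102 CPM, although Adipoq had 853 counts in that library. Relative to Adipoq, the Lep count was highest in WT 601, at 0.143 (95% exact interval 0.108 to 0.188), and in the Adipoq-rich A1cf KO 602 it was 0.0144 (0.00981 to 0.0204). In A1cf KO 780 the upper end of the interval was 0.00433. The kidney with the most Adipoq was not the kidney with the most Lep.

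**Figure D1:**
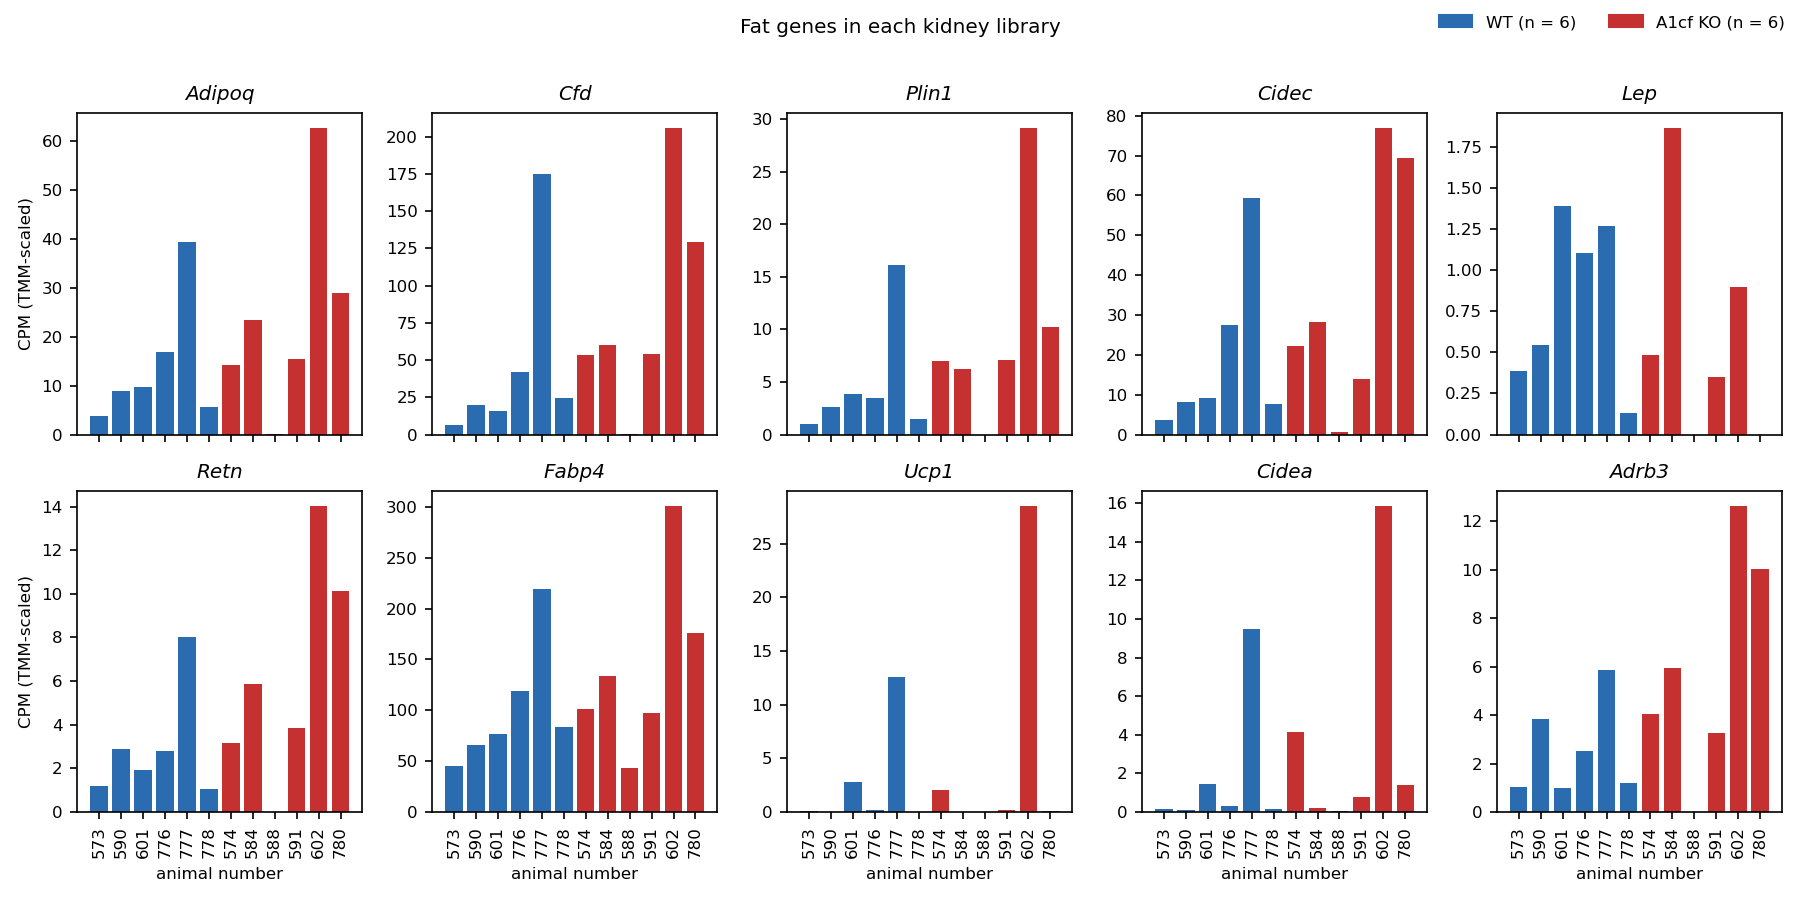
CPM (y axis, starting at 0) of the 10 fat genes in each of 12 libraries (x axis, animal number), WT in blue and A1cf KO in red. WT 777 and A1cf KO 602 carry the tallest bars of their genotype for most genes, and A1cf KO 588 has next to none except for Fabp4.

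Genes of the lipid droplet and of fatty acid transport were similar in order. Plin1 had 50 to 809 counts in WT (median 115) and 0 to 1036 in A1cf KO (median 333). Cidec had 189 to 2981 counts in WT (median 415) and 32 to 2733 in A1cf KO (median 1110). A1cf KO 588 was lowest and WT 777 and A1cf KO 602 were highest in their genotype for both genes. A1cf KO 780 stood out for Cidec, at 69.5 CPM, close to the 76.9 CPM of A1cf KO 602. Its ratio of Cidec to Adipoq counts, which is not scaled to length and is set here only against the same ratio in other libraries, was 2.41 (95% exact interval 2.22 to 2.61), against 0.901 to 1.63 in the other libraries with Adipoq (A1cf KO 588 aside). In A1cf KO 588 that ratio was 8 from 32 and 4 counts, with an interval of 2.84 to 31.1.

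Fabp4 was least dependent on the library. Its counts ran from 2351 to 11016 in WT (median 3399.5) and from 2058 to 10703 in A1cf KO (median 5098), or 45.6, 80.3 and 219 CPM and 42.9, 118 and 301 CPM. The lowest library was again A1cf KO 588, but with 42.5% of the median of the other 11 libraries, where Adipoq was at 0.543%, Cfd at 0.0779% and Cidec at 2.99%. Plin1, Retn, Lep and Adrb3 had 0 counts there (floor 0.0626 CPM for 3 counts). Fabp4 is counted as 1 segment of 4489 bases that spans the gene from start to end, while the other members are counted as separate exon segments. Its level per kilobase is therefore not directly comparable with theirs. Its part from cells other than fat cells, such as endothelium, was not tested.

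Ucp1 set 4 libraries apart from the rest. Ucp1 had 1015 counts in A1cf KO 602, 633 in WT 777, 124 in WT 601 and 110 in A1cf KO 574. Each of the other 8 libraries had at most 10, and WT 778 and A1cf KO 584 had 0. Cidea was at 15.9, 9.48, 1.44 and 4.13 CPM in these libraries in that order, and at 0.0417 to 1.42 CPM in the other 8. The highest of those was A1cf KO 780 (42 counts, 1.42 CPM), level with WT 601 (63 counts, 1.44 CPM), so scaled Cidea set only 3 libraries apart. Of the 4 libraries with Ucp1, 2 were WT and 2 were A1cf KO. Cidea exons overlap B430212C06Rik on the other strand (6 to 68 counts per library), and counting used no strand, so low Cidea counts are uncertain.

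Ucp1 followed the order of Adipoq only in part. A1cf KO 602 and WT 777 were highest for both genes, but other libraries differed in order. The Pearson r of their log2 CPM was 0.469 over 12 libraries and 0.57 without A1cf KO 588, given as a description only. The count ratio of Ucp1 to Adipoq was 0.456 in A1cf KO 602 (95% exact interval 0.423 to 0.491), 0.32 in WT 777 (0.292 to 0.35), 0.291 in WT 601 (0.236 to 0.356) and 0.144 in A1cf KO 574 (0.117 to 0.176). In A1cf KO 780, second in A1cf KO for Adipoq, it was 0.00234 (0.000283 to 0.0085). In A1cf KO 584, with 856 Adipoq counts, no Ucp1 count was found and the upper end was 0.00432. WT 601 had less Adipoq (9.71 CPM) than either. Over the 11 libraries other than A1cf KO 588, the Cidea to Adipoq ratio ran over a 30.9-fold range, against 2.1-fold for Retn, 2.36-fold for Plin1, 2.67-fold for Cidec, 2.75-fold for Cfd, 3.12-fold for Fabp4 and 4.3-fold for Adrb3. For Ucp1 and Lep the range has no upper limit, since each had a library with 0 counts.

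Adrb3, listed with the brown fat genes, had levels closer in order to Adipoq than to Ucp1. Its counts ran from 43 (WT 601) over a median of 61 to 295 (WT 777) in WT, and from 0 over 216.5 to 449 (A1cf KO 602) in A1cf KO. A1cf KO 780 had 296 Adrb3 counts with 2 of Ucp1, and WT 601 had the least Adrb3 of WT with 124 of Ucp1. The Pearson r of Adrb3 log2 CPM over the 12 libraries was 0.966 with Adipoq and 0.353 with Ucp1, and 0.884 and 0.312 without A1cf KO 588. These are descriptions, and the difference between them was not tested.

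**Figure D2:**
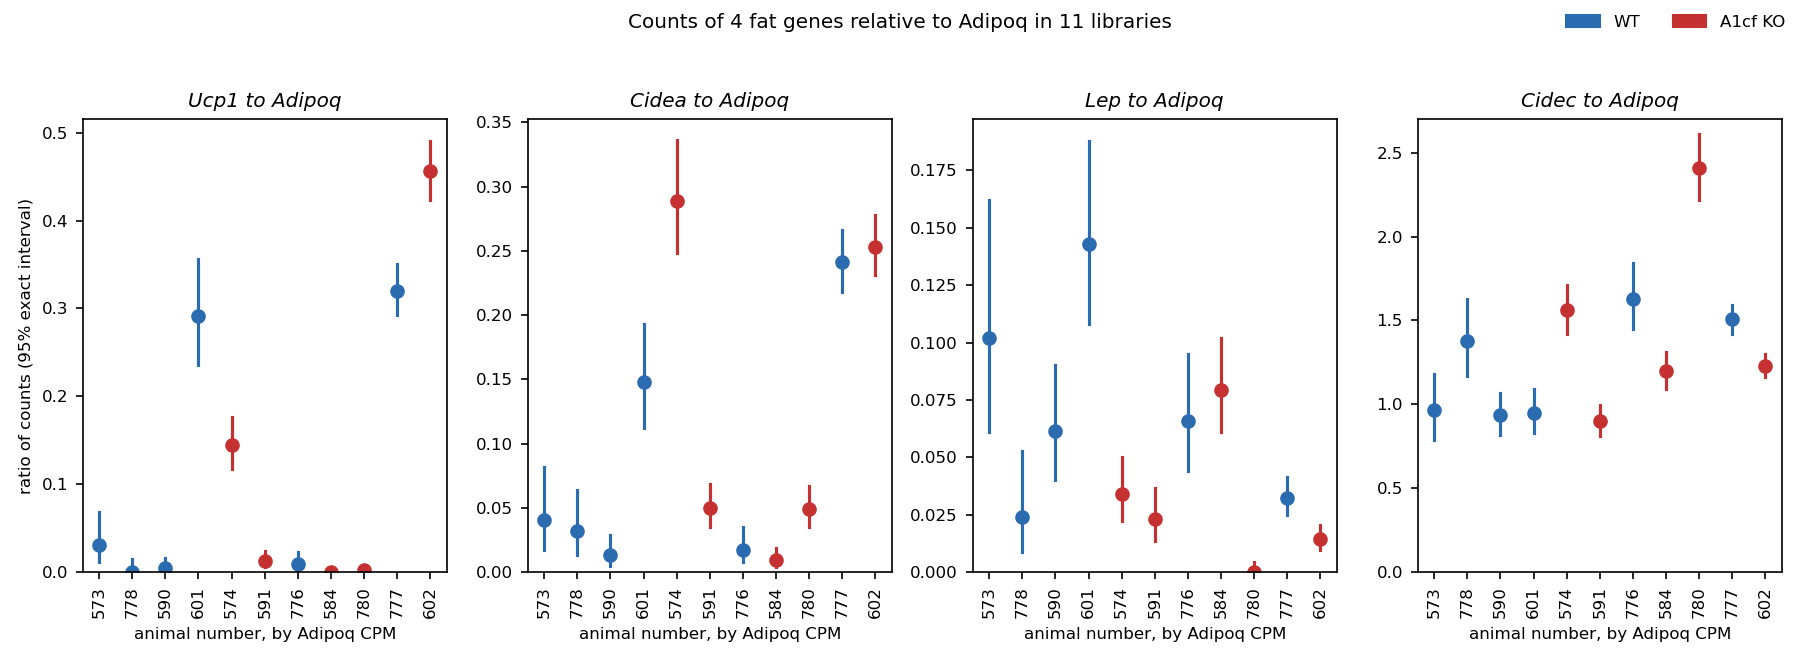
Counts of Ucp1, Cidea, Lep and Cidec divided by those of Adipoq (y axes, linear) in 11 libraries ordered by Adipoq CPM (x axis, animal number), with 95% exact intervals from counts as bars. A1cf KO 588, with 4 Adipoq counts, is left out. Ucp1 and Cidea are high in 601, 574, 777 and 602, Lep is highest in 601, and Cidec is highest in 780.

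Set side by side per kilobase, median levels over 12 libraries were 51.8 CPM per kb for Cfd, 22.1 for Fabp4, 10.7 for Adipoq, 9.74 for Cidec, 1.92 for Retn, 1.23 for Adrb3, 1.09 for Plin1, 0.454 for Cidea, 0.153 for Lep and 0.0802 for Ucp1. Adipoq was above Cidec in only 6 of 12 libraries, and Adrb3 above Plin1 in 6, so those neighbours did not differ beyond their spread. Cidea was above Lep in 9 libraries and Plin1 above Cidea in 7, and Lep was above Ucp1 in 5. Retn was above Adrb3 in 11 libraries, and Cfd above Fabp4 in 10. The place of Fabp4 in this order depends on its counted length of 4489 bases, which runs from gene start to end. Fabp4 was above Adipoq, and Cidec above Retn, in 12 of 12.

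Levels of 5 white fat genes were tied closely to each other across kidneys. Among 36 pairs of the 9 members with at least 10 counts in at least 6 libraries, the 10 pairs of Adipoq, Cfd, Plin1, Cidec and Retn had Pearson r of log2 CPM between 0.945 and 0.989 and Spearman rho between 0.909 and 0.986. For Adipoq and Cfd, r was 0.988 (permutation p = 1e-05, the smallest that 100000 resamples can give, adjusted p = 4.5e-05 over 36 pairs) and rho was 0.951 (permutation p = 3e-05, adjusted p = 0.00018). Without the 2 libraries farthest from the Adipoq median, A1cf KO 588 and A1cf KO 602, that r was 0.944. Over the 10 pairs, leaving out the 2 farthest libraries gave r of 0.885 to 0.959, and leaving out only A1cf KO 588 gave at least 0.906. Within WT the lowest r of these pairs was 0.85 and within A1cf KO it was 0.967 (n = 6 each). The A1cf KO value includes A1cf KO 588, far below the rest for these genes, so it cannot be set against the WT value. Close ties were not particular to these 5. Adrb3 had r of 0.931 (Cidec) to 0.986 (Retn) with them, and 0.852 (Plin1) to 0.953 (Retn) without A1cf KO 588. Fabp4 had 0.816 (Retn) to 0.933 (Cidec), and 0.898 (Retn) to 0.966 (Cfd) without that library.

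The remaining members followed Adipoq to different degrees. Fabp4 had an r of 0.831 with Adipoq (permutation p = 8e-05, adjusted p = 0.000169) and a rho of 0.972 (permutation p = 1e-05, adjusted p = 9e-05), and r was 0.949 without the 2 farthest libraries. Adrb3 had an r of 0.966 (permutation p = 5e-05, adjusted p = 0.000112) and a rho of 0.86 (permutation p = 0.00059, adjusted p = 0.00101), and r was 0.841 without those 2. Cidea had an r of 0.695 (permutation p = 0.00578, adjusted p = 0.00832) and a rho of 0.783 (permutation p = 0.00353, adjusted p = 0.00508), and r was 0.629 without those 2. Lep did not pass, with an r of 0.571 (permutation p = 0.0551, adjusted p = 0.0684) and a rho of 0.431 (permutation p = 0.161, adjusted p = 0.2), and its r was 0.109 without those 2 and 0.178 without A1cf KO 588 alone. Ucp1 had too few libraries with counts for this test.

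**Figure D3:**
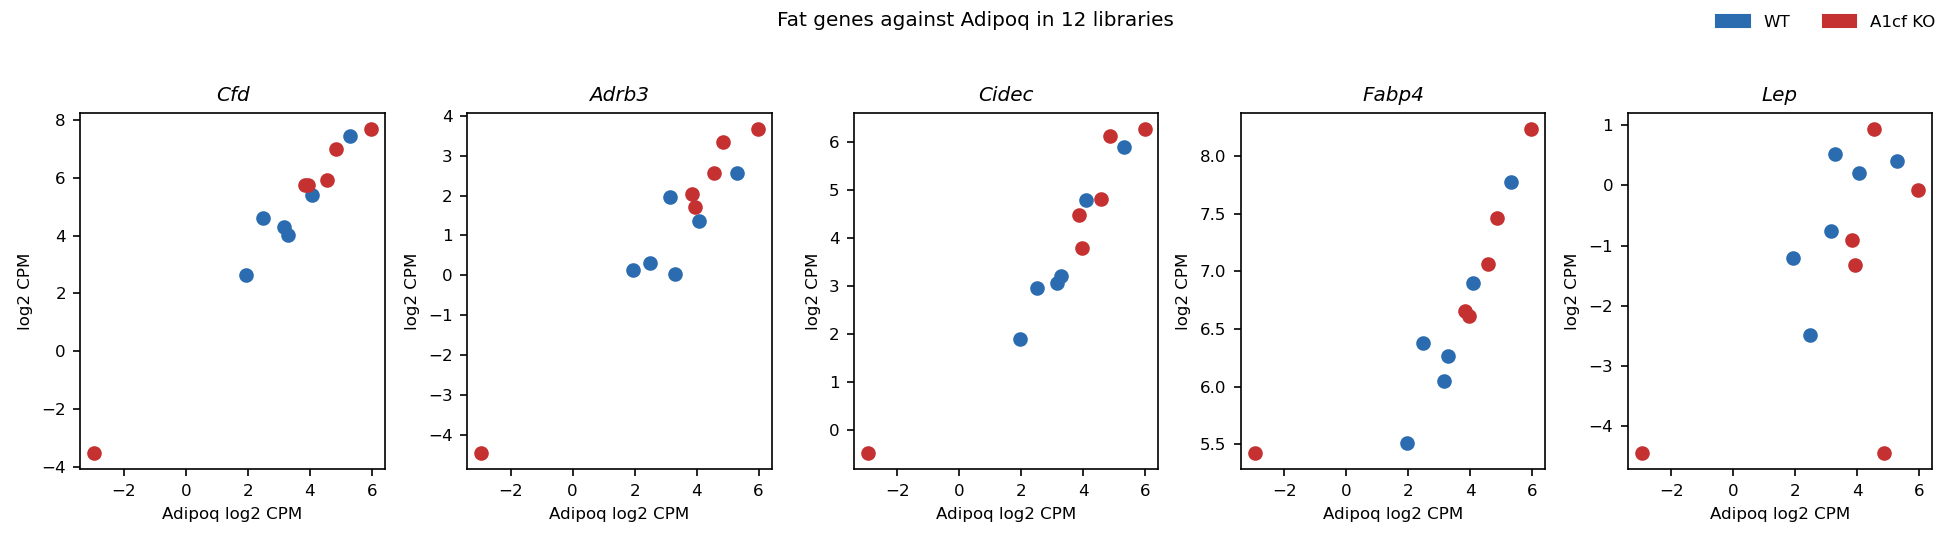
Log2 CPM of Cfd, Adrb3, Cidec, Fabp4 and Lep (y axes) against log2 CPM of Adipoq (x axes) in 12 libraries, WT in blue and A1cf KO in red, with a prior count of 2. A1cf KO 588 is the point at the lower left of each panel, and Lep is at its lowest value in A1cf KO 780 as well.

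Adipoq, Cfd, Plin1, Cidec and Retn were tied closely, Lep did not pass against Adipoq, and Ucp1 was not tested. The sequences just before the start sites of Adipoq, Cfd, Retn, Cidec and Ucp1 are shown for comparison. They are the 250 bases before the start in RefSeq (GRCm38.p6, the assembly of mm10), 5′ to 3′ on the gene's own strand. Capitals mark matches on either strand to TATAAA, to CCAAT, to TTGCNNAA (a form of the C/EBP site) or to AGGTCA (the half-site of nuclear receptors such as PPARG).
Adipoq, chr16:23146286-23146535, plus strand: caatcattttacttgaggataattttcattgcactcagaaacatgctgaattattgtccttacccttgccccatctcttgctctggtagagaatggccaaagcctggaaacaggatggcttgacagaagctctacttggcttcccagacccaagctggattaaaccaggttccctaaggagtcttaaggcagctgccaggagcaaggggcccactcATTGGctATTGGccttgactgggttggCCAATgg
Cfd, chr10:79890603-79890852, plus strand: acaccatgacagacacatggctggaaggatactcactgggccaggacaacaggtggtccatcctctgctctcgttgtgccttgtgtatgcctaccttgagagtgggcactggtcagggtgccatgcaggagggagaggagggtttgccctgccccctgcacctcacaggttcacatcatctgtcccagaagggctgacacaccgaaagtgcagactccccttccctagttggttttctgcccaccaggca
Retn, chr8:3655520-3655769, plus strand: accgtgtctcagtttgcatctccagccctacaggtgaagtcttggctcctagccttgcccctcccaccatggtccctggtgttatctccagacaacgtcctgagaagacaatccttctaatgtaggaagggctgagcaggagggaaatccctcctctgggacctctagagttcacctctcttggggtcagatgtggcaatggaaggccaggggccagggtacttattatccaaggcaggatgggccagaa
Cidec, chr6:113435761-113436010, minus strand: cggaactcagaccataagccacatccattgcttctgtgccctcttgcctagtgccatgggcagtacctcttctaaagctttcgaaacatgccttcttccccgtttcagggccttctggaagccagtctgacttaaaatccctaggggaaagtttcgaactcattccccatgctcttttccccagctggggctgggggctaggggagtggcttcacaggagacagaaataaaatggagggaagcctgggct
Ucp1, chr8:83290098-83290347, plus strand: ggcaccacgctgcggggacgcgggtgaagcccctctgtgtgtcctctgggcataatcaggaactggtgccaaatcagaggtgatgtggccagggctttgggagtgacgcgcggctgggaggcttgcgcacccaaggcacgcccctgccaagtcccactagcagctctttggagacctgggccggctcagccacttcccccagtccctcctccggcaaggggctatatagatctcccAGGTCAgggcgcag

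Promoters of 7 members were read, the 5 shown with Plin1 and Lep, and Cidec had a second start. Those of Cidea, Fabp4 and Adrb3 were not read. No short motif was common to the 7 that were read. The CCAAT motif matched in 1 of 7 (Adipoq, 3 matches, first bases at -34, -27 and -7 from the start), against 33.8% of 32851 mouse promoters. TTGCNNAA matched in 2 of 7 (Plin1 at -187 and -58, Lep at -55), against 9.56%, and also in the second Cidec start at -198. AGGTCA matched in 1 of 7, Ucp1 at -14, against 14% of promoters. TATAAA, the E-box CACGTG and the cyclic AMP element TGACGTCA matched in 0 of 7, against 12.4%, 6.02% and 1.55%. The 2 matches of Lep to TTGCNNAA are the same 8 bases read on both strands, and no other matches overlapped.

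None of the 9 tested fat genes passed the genotype test, and the spread between animals was wide. By the edgeR quasi-likelihood test 0 of 9 passed the threshold over all genes (background 0.0473%, of which 0.0118% higher and 0.0355% lower in A1cf KO), 0 had an unadjusted p under 0.05 (background 10.4%), and DESeq2 and limma-voom called 0. Over all 16910 genes tested, DESeq2 called 170 and limma-voom 8. For 0 of 9 were the genotypes without overlap (background 0.84%). The log2 fold change was positive for 8 and negative for 1, with a median of 0.87 against -0.0030 over all genes. Those 8 signs come from the same few libraries and are no independent counts. Summed over the 7 white or general members, levels were 61.8, 121 and 518 CPM (lowest, median, highest) among WT animals and 43.7, 231 and 690 CPM among A1cf KO animals, and the ranges overlapped. The 3 brown members summed to 1.32, 3.47 and 27.9 CPM and to 0.0834, 8.19 and 57.0 CPM. Without Adrb3, the member of the 3 with the most counts, these were 0.155, 0.357 and 22.1 CPM and 0.0834, 1.22 and 44.4 CPM. Median Ucp1 was nearly the same for WT and A1cf KO animals (0.1319 and 0.1315 CPM), and median Cidea was low in both (0.236 and 1.09 CPM).

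The fold changes had large errors. Adrb3 had the smallest adjusted p of the members, with a log2 fold change of 1.20 (SE 0.72, edgeR adjusted p = 0.59). Mean Adipoq was 14.01 ± 13.2 CPM for WT animals and 24.1 ± 21.2 CPM for A1cf KO animals (SD, n = 6 each), with a log2 fold change of 0.78 (SE 0.75, edgeR adjusted p = 0.76). Plin1 was at 4.74 ± 5.67 and 9.95 ± 9.98 CPM (log2 fold change 1.05, SE 0.82), and Retn at 2.99 ± 2.59 and 6.17 ± 5.10 CPM (1.03, SE 0.73). Cfd (0.82), Cidec (0.87), Fabp4 (0.48) and Cidea (0.91) were also positive, and Lep was negative (-0.42, SE 0.78, edgeR adjusted p = 0.88). Ucp1 was below the filter, and its log2 CPM averaged -1.30 for WT and -1.21 for A1cf KO animals (two-sided exact permutation p = 0.95, n = 6 each). In bulk tissue, fewer fat cells and less RNA of these genes per cell cannot be told apart.

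Single libraries moved these fold changes. Without A1cf KO 588 the log2 fold change was 1.04 for Adipoq, 1.32 for Plin1, 1.30 for Retn and 1.47 for Adrb3 (SE 0.49, edgeR adjusted p = 0.41), and 0 of 9 passed. Without A1cf KO 602 it was 0.22 for Adipoq and 0.12 for Fabp4, and Cidea turned to -0.56. Without WT 777 it was 1.44 for Adipoq, 1.96 for Cfd and 3.09 for Cidea, with a smallest adjusted p of 0.39. By limma-voom Adipoq was at -0.25, Cfd, Plin1, Retn and Adrb3 were also below 0, and none was called. The animal numbers form 2 series, uneven between genotypes, and within animals 573 to 602 (3 WT, 5 A1cf KO) Adipoq was at 1.63 (SE 0.99) and Cfd at 2.41 (SE 1.15), with 0 called. The other series, 776 to 780, holds 1 A1cf KO library.

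**Figure D4:**
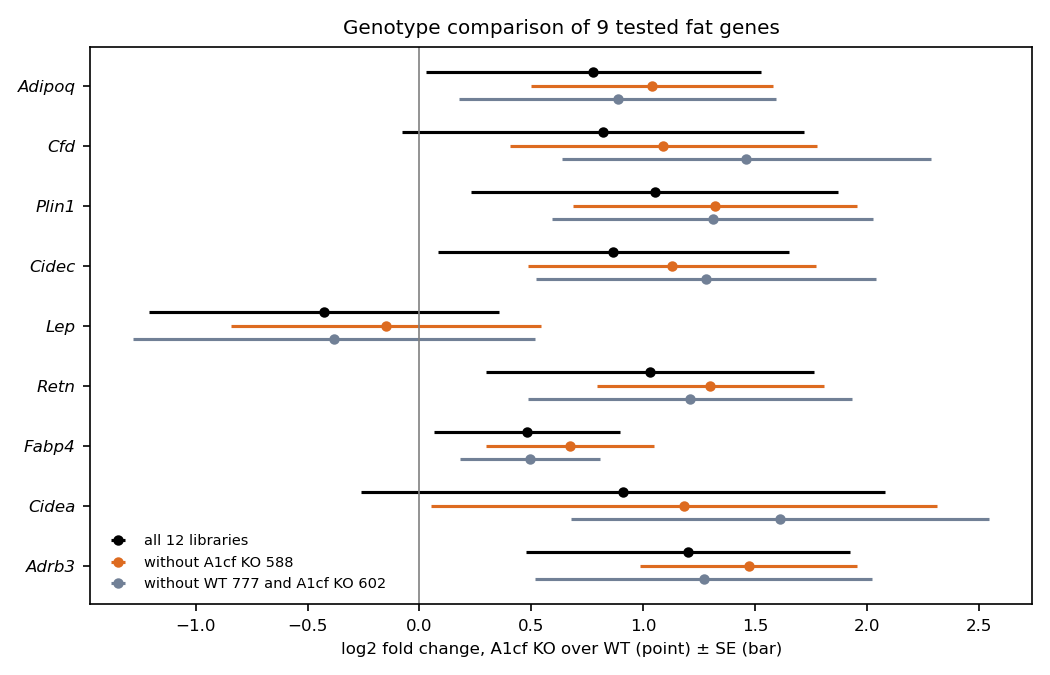
Log2 fold change, A1cf KO over WT (x axis), of the 9 tested fat genes (rows), with SE as bars, for all 12 libraries (black), without A1cf KO 588 (orange) and without WT 777 and A1cf KO 602 (grey). 8 genes are to the right of 0 and Lep is to the left, with long bars, and none passed the threshold in any of these fits.

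The fat genes varied more within a genotype than most kidney genes, but their rank rested largely on A1cf KO 588. By the SD of log2 CPM within genotype over 16910 tested genes (median 0.203), Cfd ranked 1 (SD 3.14), Plin1 2 (2.51), Cidea 3 (2.51) and Adipoq 5 (2.41), and 8 of 9 tested members were among the 50 most variable genes. Without A1cf KO 588, 2 of 9 were among the 50 (median SD of all genes 0.206). Those 2 were Cidea, at rank 5 (SD 2.28), and Lep, at rank 28 (SD 1.61, against rank 26 and 1.80 with it). Cfd was then at rank 54 (SD 1.34), Cidec 65 (1.29), Plin1 98 (1.20), Adipoq 181 (1.06), Retn 256 (0.983) and Adrb3 281 (0.964). Fabp4 ranked 437 with A1cf KO 588 (SD 0.864) and 837 without it (0.732).

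Further adipocyte genes were read from a list of 21, which followed Adipoq to different degrees (r from -0.268 to 0.934, median 0.591). By edgeR 0 of 21 passed between genotypes (DESeq2 0, against 170 of 16910 over all genes), with a median log2 fold change of 0.26. An unadjusted edgeR p under 0.05 was found for 2 of 21 (background 10.4%). The highest r with Adipoq over 12 libraries was 0.934 for Acvr1c, an activin-type receptor of fat cells (0 to 3.40 CPM), followed by Plin4, a droplet protein (0.906, 4.03 to 57.1 CPM), Aoc3, an amine oxidase (0.879, 2.21 to 11.3 CPM), and Adig, adipogenin (0.87, 0.125 to 6.30 CPM). All 4 were highest in A1cf KO 602 and lowest in A1cf KO 588, where Acvr1c was at 0. Without that library their r was 0.947, 0.965, 0.948 and 0.89. These 4 are the highest of the list, and the lowest r were -0.268 for Dgat2, an enzyme of triglyceride synthesis, and -0.0571 for the transcription factor Cebpa. The most abundant of the list, lipoprotein lipase (Lpl, 464 to 1057 CPM) and the fatty acid transporter Cd36 (420 to 768 CPM), had r of 0.525 and 0.17 (0.635 and 0.549 without A1cf KO 588), and their levels in A1cf KO 588 were 482 and 583 CPM.

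Other brown fat genes had r with Ucp1 from -0.314 to 0.922, with a median of 0.34 over 18 genes. Of 18 listed, 13 were tested, and 0 passed by edgeR (DESeq2 0, against 170 of 16910 over all genes). The median log2 fold change was -0.0064. An unadjusted edgeR p under 0.05 was found for 1 of 13 (background 10.4%). Otop1, a proton channel of brown fat, had an r of 0.922 with Ucp1 at 0 to 0.816 CPM, and Cox8b, a muscle and brown fat subunit of cytochrome oxidase, had 0.836 at 0 to 3.68 CPM. Slc36a2, an amino acid transporter, ran from 0.167 to 15.8 CPM with an r of 0.821 with Adipoq and 0.704 with Ucp1. Ebf2, a transcription factor of brown fat precursors, ran from 0.0776 to 1.52 CPM (0.772 with Adipoq). These 4 genes, the highest of the list by r, had their top level in A1cf KO 602. Cpt1b, an enzyme of fatty acid oxidation, was also low, with a mean of 0.931 CPM, and had an r of 0.0621 with Ucp1. The genes of this list with the highest r were all at low levels, and whether level bears on r was not tested. The most abundant were Pdk4 (76.5 to 805 CPM), a kinase of pyruvate metabolism, and the fatty acid transporter Slc27a1 (115 to 198 CPM), with r of 0.0403 and -0.114 with Ucp1.

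Receptors and partners of the members were found in all kidneys. Of 13 tested, 0 passed by edgeR or by DESeq2 (170 of 16910 over all genes), with a median log2 fold change of 0.022. By edgeR 0 had an unadjusted p under 0.05 (background 10.4%). The adiponectin receptor Adipor1 was at 132 to 157 CPM with an r of -0.149 with Adipoq, and the droplet protein Plin2 at 166 to 423 CPM (r 0.42). The 13 genes summed to 672 to 981 CPM among WT and 689 to 951 CPM among A1cf KO animals. That sum followed Adipoq, with an r of 0.701 (permutation p = 0.00249, adjusted p = 0.0162 over 13 measures) and a rho of 0.783 (permutation p = 0.00383, adjusted p = 0.0166), and r was 0.743 without the 2 farthest libraries.

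Markers of connective tissue, mesothelium and other tissues were measured beside the fat genes, and their part in the fat gene levels was not tested. Whether the connective tissue lay inside or outside the kidney was not tested either. Summed markers of fibrous connective tissue (11 genes) were at 105 to 192 CPM in WT and 94.6 to 226 CPM in A1cf KO, lowest in A1cf KO 588. Their r with Adipoq was 0.87 (permutation p = 3e-05, adjusted p = 0.00039 over 13 measures), rho was 0.937 (permutation p = 7e-05, adjusted p = 0.00091), and r was 0.884 without the 2 farthest libraries. Dcn, decorin, had an r of 0.855, and Pdgfra, a fibroblast receptor, 0.456. Summed mesothelial markers (6 genes, 11.7 to 59.5 CPM in WT, 11.2 to 38.1 CPM in A1cf KO) had an r of 0.683 (permutation p = 0.0307, adjusted p = 0.133) and a rho of 0.825 (permutation p = 0.00138, adjusted p = 0.00897). Their r was 0.721 without the 2 farthest libraries and 0.783 without A1cf KO 588 alone. Upk3b, a mesothelial surface gene, was at 16.2 CPM in WT 777, 7.34 in A1cf KO 602 and 0.417 in A1cf KO 588, while Wt1, which podocytes also make, had an r of 0.248. Of the 6 genes Upk3b, Upk1b (16.9 CPM) and Krt19 (15.4 CPM) were highest in WT 777, the latter 2 being genes of urothelium as well. Msln (7.12 CPM) and Lrrn4 (2.98 CPM) were highest in A1cf KO 602, at 4.43 and 0.616 CPM in WT 777, and Wt1 was highest in WT 778.

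Sums of the remaining lists did not pass the test against Adipoq. The other adipocyte genes had an r of 0.578 (permutation p = 0.0695, adjusted p = 0.226) and a rho of 0.664 (permutation p = 0.022, adjusted p = 0.0667). Their r was 0.67 without the 2 farthest libraries and 0.786 without A1cf KO 588 alone. Lpl and Cd36 had the highest mean levels in that sum (607 and 554 CPM), with r of 0.525 and 0.17 of their own. The other brown fat genes had an r of 0.427 (permutation p = 0.166, adjusted p = 0.364) and a rho of 0.65 (permutation p = 0.0256, adjusted p = 0.0667). Their r was 0.564 without the 2 farthest libraries and 0.472 without A1cf KO 588 alone. For kidney, adrenal gland, skeletal muscle, pancreas, liver, erythroid and lymph node markers and for total counts, adjusted permutation p values were 0.364 to 0.919 for Pearson r and 0.204 to 0.922 for Spearman rho. The largest of these r in size were -0.42 for liver and -0.396 for total counts (permutation p = 0.174 and 0.196). Adrenal markers summed to 4.26 to 6.37 CPM among WT and 4.69 to 6.55 CPM among A1cf KO animals, mostly from Star and Akr1b7, while the defining genes Cyp11b2 and Nr5a1 were at 0 in all libraries and Cyp11b1 stayed at or below 0.0456 CPM. Of 8 pancreas genes 4 had no count in any library, Ctrb1 stayed at or below 0.147 CPM, and Cela1 made up nearly all of the sum (31.9 to 103 CPM for WT, 33.7 to 66.9 CPM for A1cf KO). Skeletal muscle markers summed to 12.3 to 23.3 and 11.7 to 18.2 CPM, mainly Pvalb, which the distal tubule makes, with Mylpf at 0.643 to 1.66 CPM. Lymph node markers summed to 4.85 to 6.67 and 5.74 to 10.8 CPM, led by Cr2 and Ccl21a. Liver markers summed to 44.1 to 147 and 36.6 to 128 CPM, led by Serpina1a and Ttr, and erythroid markers to 251 to 432 and 161 to 457 CPM, led by Hbb-bs and Hba-a1.

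Between genotypes, 0 genes of the connective tissue, mesothelial, kidney, adrenal, muscle, pancreas, liver, erythroid and lymph node lists passed by edgeR. Without adjustment, edgeR p was under 0.05 for 4 of 10 kidney genes and 1 of 11 connective tissue genes, against 10.4% of all genes tested. It was under 0.05 for 1 gene each of the adrenal (2 tested), muscle (3), liver (6) and erythroid (6) lists, and for 0 of the others. DESeq2 called 1 kidney gene, Umod (log2 fold change -0.48, SE 0.086, DESeq2 adjusted p = 5.49e-05, edgeR adjusted p = 0.106), and 1 liver gene, the apolipoprotein Apoa2 (-0.63, SE 0.14, DESeq2 adjusted p = 0.00302, edgeR adjusted p = 0.144). Over all 16910 genes tested DESeq2 called 170. The median log2 fold change was 0.37 over 11 connective tissue genes, -0.21 over 6 mesothelial genes and -0.12 over 10 kidney genes.

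**Figure D5:**
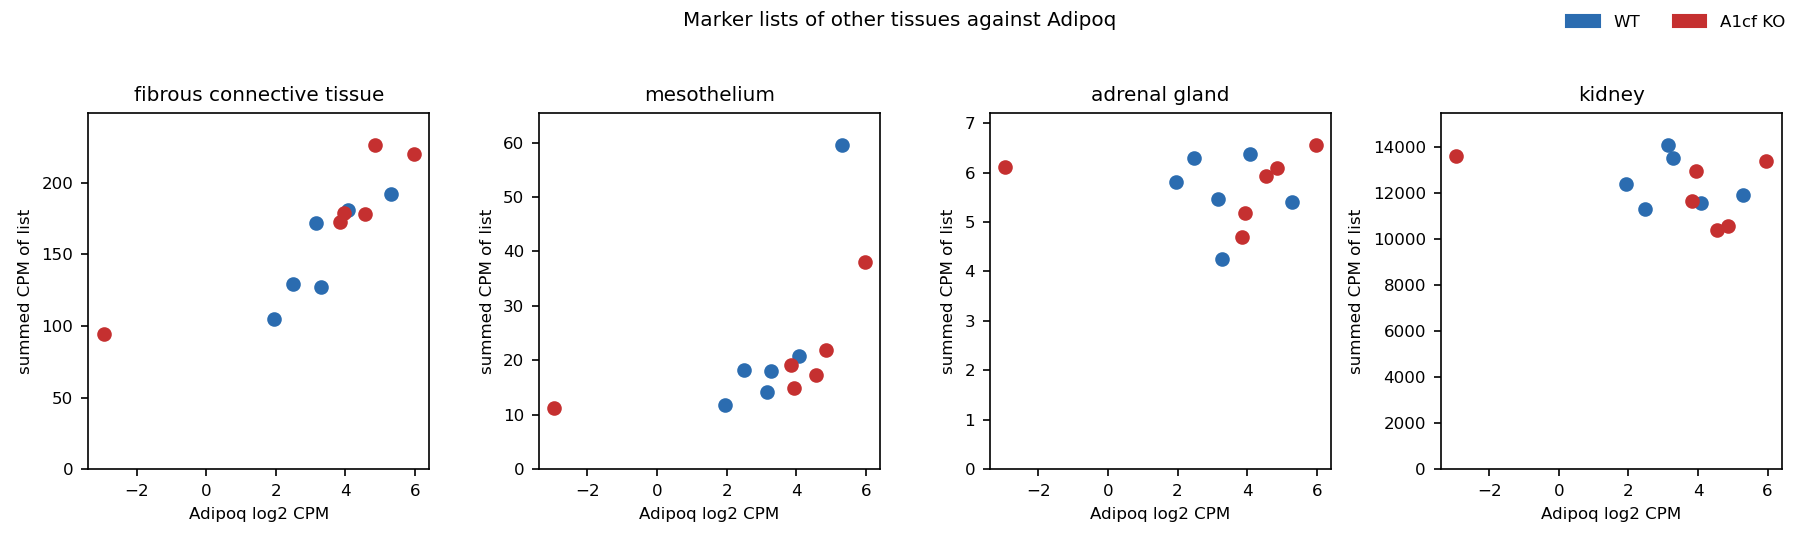
Summed CPM (y axes, starting at 0) of 4 marker lists against Adipoq log2 CPM (x axes) in 12 libraries, WT in blue and A1cf KO in red. Connective tissue markers are higher in libraries with more Adipoq (r 0.87), the mesothelial sum is highest in WT 777, and the adrenal and kidney sums did not pass the test against Adipoq.

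Genes most like Adipoq came from outside the member list as well. Over the 12 libraries, 85 of 16910 tested genes had an r above 0.8 with Adipoq, 6 of them members, 4 from the other adipocyte list and 4 from the connective tissue list. Without A1cf KO 588, 130 genes had an r above 0.8, and 44 of the 85 were among them. Among 13516 named genes at a mean of at least 0.5 CPM, the members Retn, Cfd, Plin1, Adrb3 and Cidec held ranks 1 to 5, Fabp4 ranked 54, Cidea 186 and Lep 410. The next were Apol6 (r 0.937, 0.125 to 9.09 CPM), Acvr1c, Bche (butyrylcholinesterase, 0.933), the long non-coding RNA Meg3 (0.933), Orm1 (an acute phase glycoprotein, 0.93), the amino acid transporter Slc7a10 (0.926), the chemokine Ccl11 (0.925) and Clec3b (tetranectin, 0.919). Without A1cf KO 588 these 8 had r of 0.948, 0.947, 0.936, 0.838, 0.93, 0.851, 0.74 and 0.817 in that order. The ranks then were 1 for Plin1, 2 for Fabp4, 5 for Cidec, 6 for Retn, 8 for Cfd, 44 for Adrb3, 191 for Cidea and 4180 for Lep. None of the 85 genes was called between genotypes by edgeR (background 0.0473%) or DESeq2 (170 of 16910 over all genes). By edgeR 0 of them had an unadjusted p under 0.05 (background 10.4%). They were picked in these same libraries for likeness to Adipoq, which itself did not pass (edgeR adjusted p = 0.76). That choice makes calls among them unlikely, so these counts are no independent result.

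Among the same 13516 genes, those most like Ucp1 were mostly others. Cidea ranked 1 (r 0.906, and 0.916 without A1cf KO 588), where Otop1 lies below the limit of 0.5 CPM, followed by Mdc1 (0.897), Ntrk3 (0.859), Tmem154 (0.842), Igf1 (0.837), Cox8b (0.836), Gpld1 (0.829), Tmem45b (0.828) and Efemp1 (0.827). Except for Cidea and Cox8b these genes varied little, for example Mdc1 from 19.7 to 24.0 CPM and Igf1 from 4.90 to 8.33 CPM, while Cidea ran from 0.0417 to 15.9 CPM. With Ucp1 high in only 4 libraries, such values of r are descriptions only.

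On mm10 the secreted members lie on chromosome 16 from 23146536 to 23158028 (Adipoq), chromosome 10 from 79890853 to 79892656 (Cfd), chromosome 6 from 29060220 to 29073877 (Lep) and chromosome 8 from 3655770 to 3660110 (Retn). Plin1 lies on chromosome 7 from 79720218 to 79732903, Cidec on chromosome 6 from 113424634 to 113435760 and Fabp4 on chromosome 3 from 10204088 to 10208576. Ucp1 lies on chromosome 8 from 83290348 to 83298456 and Adrb3 on chromosome 8 from 27225776 to 27229588. Exons of the 9 members other than Cidea overlap no other gene's exons in the table.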

How the data were processed

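Counts of reads per gene were deposited by the authors as raw counts. Per the file headers, featureCounts 1.5.0-p2 summed exon reads by gene symbol (GENCODE M8) from trimmed, merged, duplicate-marked alignments, with no strand, pair or duplicate option. STAR, DESeq2 and mm10 are named per the submitters' processing notes. Among genes with at most 50 counts in every library, 70.9 to 76.6% of non-zero counts were even, and 65.5% of the members' non-zero counts. Whether mates of a read pair were counted separately was not tested. Exact intervals and floors of 3 counts treat each count as 1 independent read and cover counting error only, and where both mates of a pair were counted they are too narrow.

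Groups come from the sample titles. The series calls the animals biological replicates. The tests used edgeR 4.0.16 (R 4.3.3): filterByExpr by genotype (16910 genes of 46882), TMM, the quasi-likelihood F test without a covariate, and Benjamini-Hochberg over all genes tested (threshold 0.05). Log2 CPM used a prior count of 2. Correlations used 100000 permutations, two-sided, in numpy 2.4.6. List sums were correlated as log2 of the sum plus 0.1 CPM. Each of 66 library pairs differed by more than sampling noise (chi-square over its degrees of freedom at least 17.3), and none was counted as a repeat. The fit was tested on simulated data.

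The members and lists were chosen with earlier results of these data known. Named genes are the 10 members, A1cf, the 2 most abundant genes and every gene of each list called by edgeR (none was), the 4 adipocyte and 4 brown fat genes with the highest r with Adipoq or Ucp1, and the 8 genes most like each of these. Other named list genes, among them Cyp11b1, Cyp11b2 and Nr5a1, which define the adrenal gland, and the 2 called by DESeq2, were chosen after their values were seen.  Alternatives were DESeq2 1.42.0, limma-voom (limma 3.58.1), other scaling and filters, covariates for the animal number series and for fat gene level, and leaving out libraries.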

Additional observations from a re-analysis of the deposited data

Results flagged for a closer look

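Within each genotype of 6 libraries, the highest or lowest member level was compared with its nearest neighbour, on CPM and again on log2 CPM. Of these 40 groups, 15 had a library far from the rest. The limit used gives about 1 in 20 by chance for normally distributed values. Whether these values are so distributed was not tested, and the same values were read on both scales. In WT, library 777 stood far above the others for Adipoq (39.4 CPM, next 16.8), Cfd (175.1, next 42.1), Plin1 (16.1, next 3.85), Retn (8.03, next 2.89), Ucp1 (12.6, next 2.83) and Cidea (9.48, next 1.44). In A1cf KO, library 602 stood above the others for Plin1 (29.1 CPM, next 10.2), Ucp1 (28.6, next 2.06) and Cidea (15.9, next 4.13). On the log2 scale A1cf KO 588 was far below the others of its genotype for Adipoq (-2.95, next 3.84), Cfd (-3.51, next 5.75), Plin1 (-4.45, next 2.66), Cidec (-0.49, next 3.80), Retn (-4.45, next 1.68) and Adrb3 (-4.45, next 1.73). WT 777 and A1cf KO 602 were flagged on CPM only, and A1cf KO 588 on log2 CPM only. The groups share these 3 libraries, so the 15 are not independent of each other.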

How the results depend on the processing

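Of the fat genes, 0 were called between genotypes in any of the 21 fits of the members, with smallest adjusted p values per gene from 0.359 (Cidec) to 0.778 (Ucp1, which passed the count filter only in the fit of animals 573 to 602 and was also in the fit without a filter). Their direction was less settled. By limma-voom the log2 fold changes of Adipoq (-0.25), Cfd (-0.27), Plin1 (-0.16), Retn (-0.35) and Adrb3 (-0.15) were negative (adjusted p 0.95 to 0.982), where the edgeR values were positive. Without A1cf KO 602, Cidea was at -0.56 (adjusted p = 0.882). Leaving out 1 library in turn gave 0.22 to 1.44 for Adipoq and -0.56 to 3.09 for Cidea. Of all genes, DESeq2 called 170 and the fit with the animal number series as covariate 24, against 8 by edgeR, and leaving out 1 library gave 6 to 12. With the mean log2 CPM of Adipoq, Plin1, Cidec and Cfd as covariate, 7 genes were called, all among the 8. The causes of these shifts were not tested. The ratio of medians, A1cf KO over WT, of the summed white members was 1.90, 1.98 without TMM and 2.66 without Fabp4, and that of the brown members 2.36, 2.41 and, without Adrb3, 3.43. Low counts limit Lep, Ucp1 and Cidea. Fits without WT 777 and A1cf KO 602, and correlations, spread and ranks without A1cf KO 588, were added after seeing the data. No paired analysis was possible because the genotypes share no animal number.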
